A study of Homo sapiens with 12 samples.

Results

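The genes of 10 plasma-membrane amino acid transporters under stress control were followed through 12 RNA sequencing libraries of OE33 cells, an established epithelial cell line from an esophageal adenocarcinoma. The 10 genes are the rows of the count matrix whose Ensembl identifiers map to SLC7A11, SLC7A5, SLC3A2, SLC7A1, SLC1A4, SLC1A5, SLC38A1, SLC38A2, SLC6A9 and SLC43A1, out of 57500 genes listed. All 10 were among the 15805 genes with enough counts to be tested.

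The libraries form 4 groups of 3, described by the study as independent biological replicates. The first, rABS_shAPE1 (shAPE1), holds cells that survived 15 days of acidified bile salts and were then stably transduced with a short hairpin RNA against APE1, a DNA repair endonuclease with a redox function that APEX1 encodes. The second, rABS_shCtrl (shCtrl), holds the same kind of survivors carrying a non-targeting hairpin. The third, rABS, holds survivors without a hairpin, and the exposure behind all of these groups was 20 minutes a day at 200 µM bile salts and pH 5.5. The fourth, Parental, is OE33 that was left untreated. All cells were grown in RPMI1640 with fetal bovine serum. No group was mock-treated, so time in culture and exposure cannot be told apart, and a single APE1 hairpin is labelled. The labels do not say whether the survivors or the transduced cells are clones or pools.

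Amino acid transporters of this kind are a standard target of the integrated stress response. When amino acids run short or proteins misfold, kinases phosphorylate the initiation factor eIF2α, the transcription factor ATF4 is translated, and ATF4 with its partners binds C/EBP-ATF response elements in genes for amino acid uptake and synthesis. Several of the same genes are also described as targets of NRF2, which acts through antioxidant response elements, and of MYC, which acts through E-boxes. SLC7A11 and SLC7A5 are light chains that reach the membrane bound to a common heavy chain, SLC3A2 (4F2hc, CD98). With SLC7A11 that pair forms system xc-, which imports cystine for glutathione synthesis in exchange for glutamate. With SLC7A5 it forms LAT1, which imports leucine and other large neutral amino acids in exchange for glutamine.

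The library totals ran from 15736087 to 23010377 counts, and replicates of a group correlated at r = 0.987 or higher on log2 CPM. APEX1 stood at 4.42, 4.50 and 5.88 CPM in shAPE1, against 62.0, 56.5 and 60.9 CPM in shCtrl. It stood at 81.8, 84.5 and 79.9 CPM in rABS, against 52.9, 54.3 and 56.9 CPM in Parental. CPM are read counts relative to library size after TMM scaling, which corrects for the composition of each library. The summed level of 7 epithelial markers was 10370 to 11085 CPM in shAPE1, 11501 to 12661 in shCtrl, 11665 to 14060 in rABS and 14073 to 17584 in Parental. KRT19 made up most of that sum and was lower in rABS (7024 to 8816 CPM) than in Parental (9893 to 12920 CPM), whereas KRT8 was higher in rABS (1820 to 2125 CPM) than in Parental (764 to 959 CPM). The 5 leukocyte markers summed to at most 9.73 CPM and 4 endothelial markers to at most 0.889 CPM in any library. The 6 fibroblast markers summed to 7.13 to 8.21 CPM in shAPE1, 9.06 to 9.46 in shCtrl, 3.43 to 4.19 in rABS and 22.5 to 29.5 in Parental. Nearly all of that sum was COL1A1, while LUM and PDGFRA were at 0 in all 12 libraries and COL1A2, COL3A1 and DCN did not exceed 0.106 CPM. The part of this difference in the results was not tested.

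Cells that had survived the exposure held a smaller share of mRNA for most of these carriers. Between rABS and Parental, 9 of the 10 genes fell and 1, SLC43A1, rose, where 29.9% of all genes tested fell and 29.9% rose. A gene was called at a Benjamini-Hochberg adjusted p under 0.05 in edgeR's quasi-likelihood test, fitted to all 12 libraries and adjusted over all genes tested, and every p below is of that kind unless another test is named. The 3 rABS libraries lay outside the range of the 3 Parental libraries for all 10 genes, as they did for 63.1% of all genes tested. Of the 10, 6 fell at least 2-fold, against 9.31% of all genes tested, and none rose as much, against 10.1%. The median log2 fold change was -1.19 over the 10 genes and -0.01 over all genes tested. The summed level of the 10 genes was 2073 ± 42.7 CPM in rABS and 4556 ± 10.3 CPM in Parental (SD, n = 3 each). In bulk RNA, fewer cells carrying a transcript and less of it per cell cannot be told apart.

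**Figure D1:**
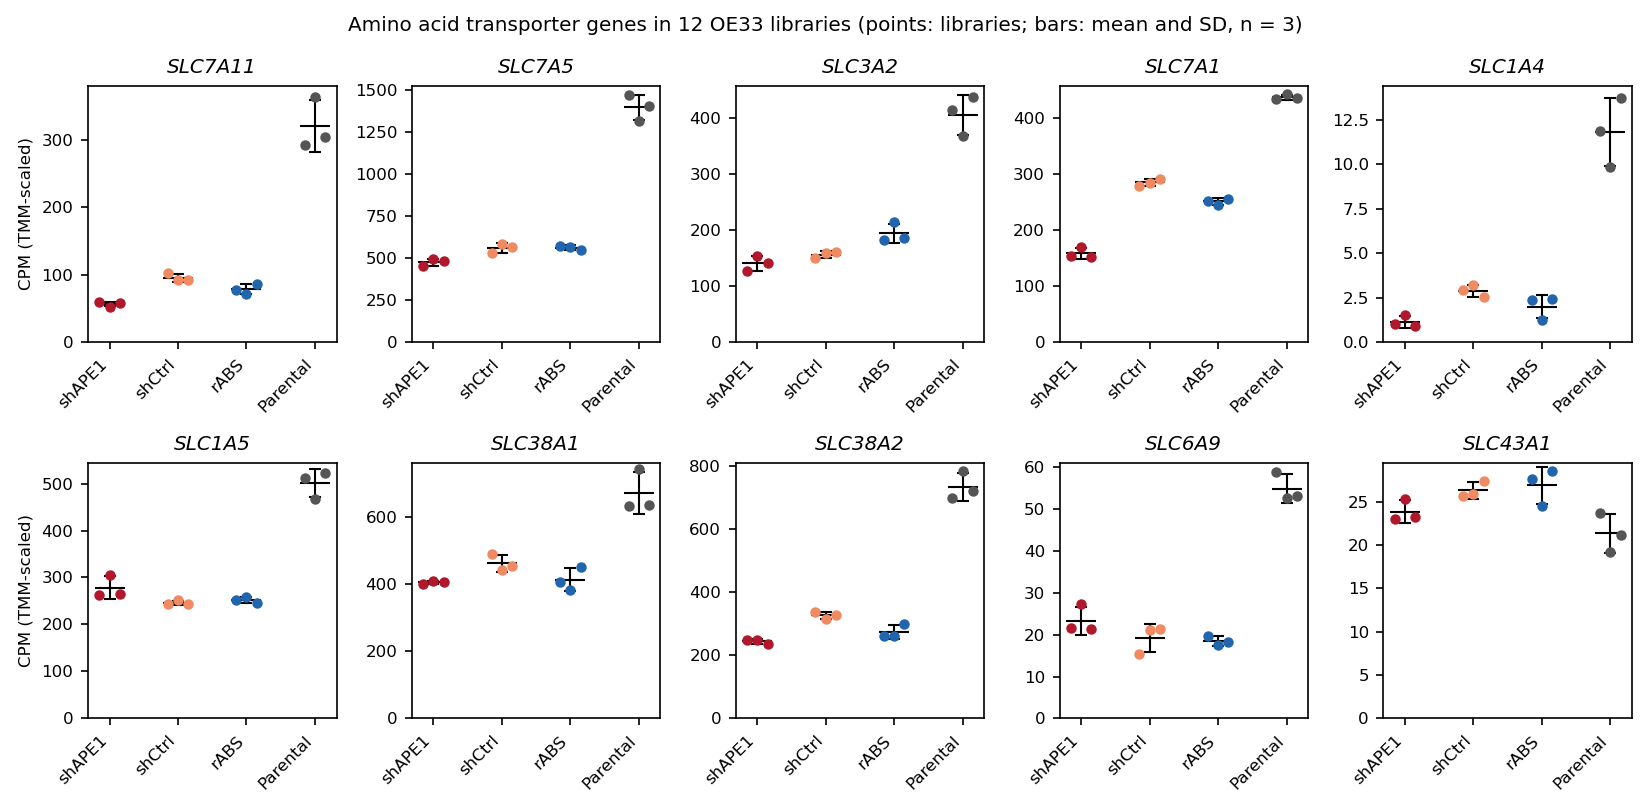
Level of each of the 10 transporter genes in CPM (linear axes from 0) in the libraries of shAPE1, shCtrl, rABS and Parental. Points are libraries and bars the mean with SD (n = 3). For 9 genes the Parental libraries are the highest of the 12; for SLC43A1 they lie below every rABS and shCtrl library.

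For the cystine and leucine exchangers, the mRNA of both light chains and of the heavy chain fell. SLC7A11 (chr4:138164097-138242349, minus strand, GRCh38), the cystine light chain, had 77.5, 72.0 and 86.2 CPM in rABS, against 293, 365 and 305 CPM in Parental. All rABS libraries lay far below the lowest Parental library, and the gene fell 4.09-fold (log2 -2.03 ± 0.08, standard error, n = 3 per group, adjusted p = 8e-20). Only 1.89% of the genes tested had a lower log2 fold change.

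SLC7A5 (chr16:87830023-87869488, minus strand), the leucine light chain, had 572, 566 and 548 CPM in rABS, against 1467, 1316 and 1405 CPM in Parental. It fell 2.48-fold (log2 -1.31 ± 0.07, adjusted p = 1.33e-17). SLC3A2 (chr11:62856102-62888875, plus strand), the heavy chain that both need, had 183, 214 and 186 CPM in rABS, against 415, 368 and 438 CPM in Parental, and fell 2.09-fold (log2 -1.06 ± 0.08, adjusted p = 1.5e-13). Of the 3 genes the heavy chain had the smallest change on the log2 scale in this comparison. That order did not hold in shCtrl against Parental, at log2 -1.38 ± 0.08 for SLC3A2 and -1.32 ± 0.07 for SLC7A5. Per kilobase of annotated exon, the sum of both light chains was 3.39 ± 0.296 times SLC3A2 in rABS and 4.19 ± 0.283 times in Parental. Exon length here is that of all annotated exons of a gene together, not of the transcripts expressed. The size of such ratios between genes depends on it. The libraries of these groups did not overlap in the ratio to SLC3A2, and the exact two-sided permutation test gave p = 0.1, the smallest that 3 against 3 libraries allow. SLC7A11 was 0.0689 times SLC7A5 in rABS and 0.114 times in Parental, so the sum is mostly SLC7A5. Other light chains that bind SLC3A2, such as SLC7A6, were not included.

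SLC7A1 (chr13:29509410-29595688, minus strand) encodes CAT-1, which carries arginine, lysine and ornithine. It had 252, 245 and 256 CPM in rABS, against 434, 443 and 435 CPM in Parental. The replicates lay close together in both groups, and the gene fell 1.74-fold (log2 -0.80 ± 0.06, adjusted p = 1.24e-12).

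The pair of SLC1 exchangers for neutral amino acids differed widely in level. SLC1A5 (ASCT2; chr19:46774883-46788594, minus strand), best known for glutamine uptake, had 251, 259 and 246 CPM in rABS, against 512, 466 and 523 CPM in Parental, and fell 1.99-fold (log2 -0.99 ± 0.07, adjusted p = 4.56e-14). SLC1A4 (ASCT1; chr2:64988477-65023865, plus strand), which exchanges serine, alanine and cysteine, had 2.33, 1.22 and 2.42 CPM in rABS, against 11.9, 9.87 and 13.7 CPM in Parental. The gene fell 5.87-fold, the lowest log2 fold change of the 10 (log2 -2.55 ± 0.22, adjusted p = 7.06e-12). Its rABS level rested on 21 to 48 counts a library, against 172 to 233 in Parental, and its standard error was the widest of the 10.

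SLC38A1 (SNAT1) and SLC38A2 (SNAT2) are sodium-coupled system A carriers that accumulate glutamine, alanine and other small neutral amino acids, and SNAT2 is the classic carrier of the adaptive response to amino acid starvation. SLC38A2 (chr12:46358189-46372867, minus strand) had 261, 260.5 and 299 CPM in rABS, against 697, 783 and 721 CPM in Parental, and fell 2.68-fold (log2 -1.42 ± 0.07, adjusted p = 6.34e-18). SLC38A1 (chr12:46183063-46270017, minus strand) had 409, 383 and 451 CPM in rABS, against 635, 746 and 638 CPM in Parental, and fell 1.63-fold (log2 -0.70 ± 0.07, adjusted p = 4.3e-10). Per kilobase of exon, the ratio of SLC38A1 to SLC38A2 was 1.03, 0.968 and 0.993 in rABS, against 0.601, 0.628 and 0.584 in Parental (exact permutation p = 0.1, the smallest possible). By this exon length SLC38A2 was the more abundant in every Parental library, and the pair stood near parity in rABS. In CPM, without length, SLC38A2 was the higher in every Parental library and SLC38A1 in every rABS library.

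SLC6A9 (chr1:43991500-44031467, minus strand) encodes GLYT1, a sodium- and chloride-coupled glycine carrier. It had 19.7, 17.5 and 18.4 CPM in rABS, against 59.0, 52.6 and 53.1 CPM in Parental, and fell 2.96-fold (log2 -1.57 ± 0.11, adjusted p = 1.31e-13).

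SLC43A1 (LAT3; chr11:57484534-57515786, minus strand) carries leucine and other branched-chain amino acids without a heavy chain. It had 27.7, 24.5 and 28.5 CPM in rABS, against 23.7, 19.2 and 21.1 CPM in Parental. The groups were separated by less than 1 CPM, and the rise was 1.27-fold (log2 0.34 ± 0.10, adjusted p = 0.0044).

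**Figure D2:**
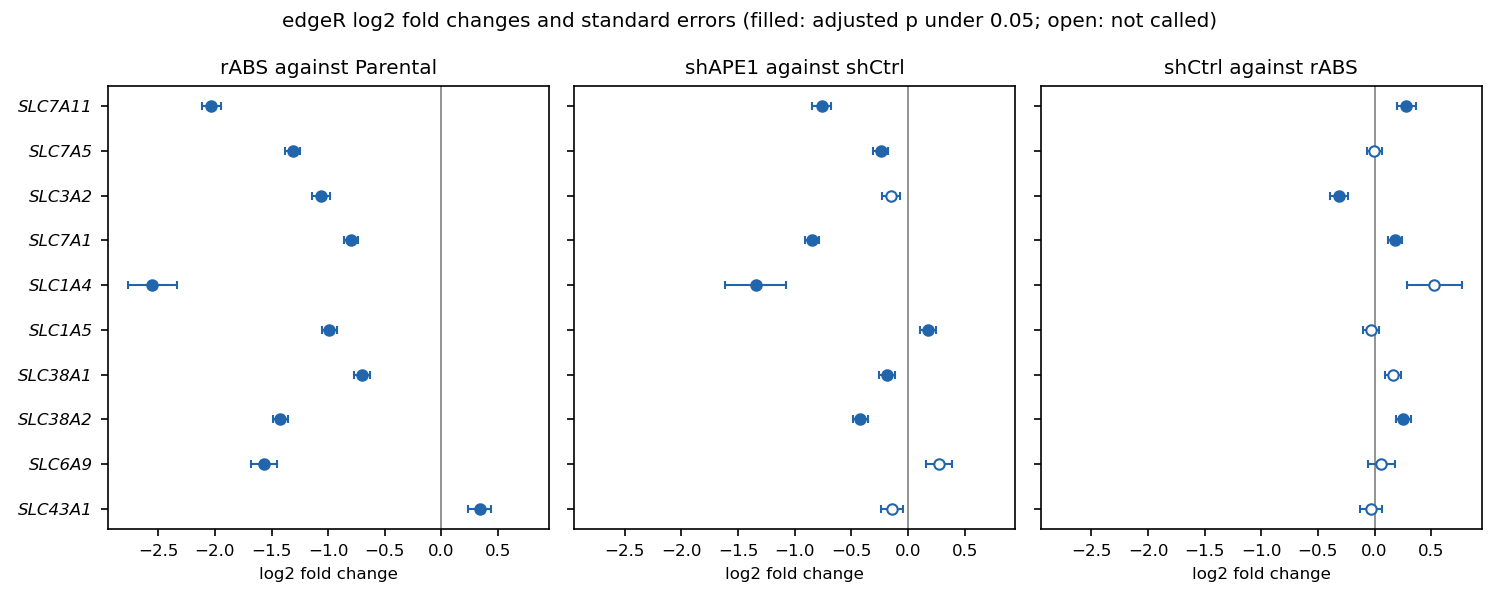
Log2 fold changes from edgeR with standard errors for the 10 genes in the panels rABS against Parental (left), shAPE1 against shCtrl (middle) and shCtrl against rABS (right). Filled points have an adjusted p under 0.05. In the left panel 9 genes lie below 0, from -0.70 for SLC38A1 to -2.55 for SLC1A4.

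The promoters of the 10 genes were searched for the letters of the 3 response elements named above: TGATGNAA for the C/EBP-ATF element, TGACNNNGC for the antioxidant response element and CACGTG for the E-box, on both strands. RefSeq promoter windows (GRCh38.p14), 250 bases before to 50 after an annotated start, were found for 9 of the 10 genes, 16 windows in all. SLC7A11 was not among them. The C/EBP-ATF letters stood in a window of 5 genes, while 4.457% of 27305 genes have them in a window of this size. These shares are not like for like, since the 27305 genes have 35116 windows, fewer per gene than the members do, and the members were chosen as stress-controlled genes. The sites are shown with the match in capitals, on the strand of the gene, since these are the elements the ATF4 pathway is known for, and none of them overlapped another of the 3 motifs.
SLC1A4 (chr2:64989381-64989410, plus strand): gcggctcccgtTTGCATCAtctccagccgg
SLC3A2 (chr11:62881719-62881748, plus strand): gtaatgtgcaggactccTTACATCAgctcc
SLC38A1 (chr12:46266502-46266531, minus strand): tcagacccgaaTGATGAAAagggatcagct
SLC7A1 (chr13:29595663-29595692, minus strand): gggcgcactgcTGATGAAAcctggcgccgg
SLC1A5 (chr19:46784893-46784922, minus strand): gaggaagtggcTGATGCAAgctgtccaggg

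In SLC1A4 and SLC3A2 the match lies on the opposite strand. SLC1A4, SLC3A2, SLC38A1 and SLC1A5 have several annotated starts, and only 1 window of each held these letters. Distances are from the start of that window. The first matching base stood 7 bases before that start in SLC1A4, 4 before it in SLC38A1, 8 after it in SLC7A1, 38 after it in SLC3A2, and 97 before the third of the SLC1A5 starts. In SLC3A2 the window (chr11:62881449-62881748) lies well inside the gene, which begins at 62856102.

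The antioxidant element's letters stood in windows of 4 genes, against 16.056% of all genes, and the E-box in windows of 3, against 8.775%. The antioxidant matches are these.
SLC3A2 (chr11:62881652-62881681, plus strand): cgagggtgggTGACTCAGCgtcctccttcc
SLC7A1 (chr13:29595754-29595783, minus strand): tgcccggcggTGACGCGGCcgagcgggccg
SLC7A5 (chr16:87869490-87869519, minus strand): gcggggttccTGACGCAGCtgcgggcggcg
SLC1A5 (chr19:46787385-46787414, minus strand): cctggatcttGCGAGGTCAgctcccgctcc

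The E-box matches are in SLC7A5 and SLC1A5, which fell, and in SLC43A1, the gene that rose.
SLC7A5 (chr16:87869620-87869649, minus strand): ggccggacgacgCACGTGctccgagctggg
SLC1A5 (chr19:46787326-46787355, minus strand): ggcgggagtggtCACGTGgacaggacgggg
SLC43A1 (chr11:57515797-57515826, minus strand): cagcgggcgagtCACGTGcgcgtgaaactc

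A match is a run of letters and not a shown binding site. SLC38A2 and SLC6A9 held none of the 3 in their windows, which says nothing of elements elsewhere in those genes.

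Levels of different genes were set side by side per kilobase of all annotated exons. The order of genes depends on this length, since the lengths of the transcripts expressed were not measured. SLC7A5 stood highest of the 10 in every group, at 100.02 ± 4.56 CPM per kb in shAPE1, 118 ± 6.14 in shCtrl, 118 ± 2.66 in rABS and 294 ± 16.03 in Parental (SD, n = 3). SLC1A5 was second in every group, at 83.5 ± 7.17 CPM per kb in shAPE1, 73.9 ± 1.41 in shCtrl, 75.6 ± 1.97 in rABS and 150.2 ± 8.99 in Parental. SLC1A4 was last in every group, at 0.163 ± 0.0491 CPM per kb in shAPE1, 0.416 ± 0.0495 in shCtrl, 0.287 ± 0.0964 in rABS and 1.71 ± 0.279 in Parental. In Parental the order between them was SLC38A2, SLC3A2, SLC38A1, SLC7A1, SLC7A11, SLC6A9 and SLC43A1, and the libraries of SLC3A2 and SLC38A1 overlapped in level. In rABS, SLC38A2, SLC38A1 and SLC3A2 overlapped, as did SLC7A11 and SLC43A1. SLC43A1 stood above SLC6A9 in all 3 survivor groups, at 7.62 ± 0.604 CPM per kb against 3.59 ± 0.214 for SLC6A9 in rABS, where Parental had 6.05 ± 0.641 for SLC43A1 and 10.6 ± 0.684 for SLC6A9.

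SLC7A11 has an antisense neighbour that rose between rABS and Parental, where SLC7A11 fell. SLC7A11-AS1 (chr4:138057464-138178177, plus strand), a non-coding transcript gene, had 21.2, 21.1 and 23.3 CPM in rABS, against 2.21, 3.13 and 2.42 CPM in Parental. It rose 8.27-fold (log2 3.05 ± 0.14, adjusted p = 6.62e-19). In shAPE1 it had 26.3, 23.9 and 25.7 CPM, against 33.6, 30.7 and 34.8 CPM in shCtrl, a fall of 1.31-fold (log2 -0.38 ± 0.10, adjusted p = 0.00256). The library order of SLC7A11-AS1 was shCtrl above shAPE1 above rABS above Parental with no overlap between groups, whereas SLC7A11 was lowest in shAPE1 and highest in Parental.

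The antisense gene shares 865 exon bases with the 9645 of SLC7A11, and its start lies 184885 bases from that of SLC7A11. Strand use in counting is not given in the sources used here; reads in the shared bases cannot be assigned to one of them. Per kilobase of exon, the ratio of SLC7A11-AS1 to SLC7A11 was 0.702 ± 0.00746 in shAPE1 and 0.543 ± 0.0435 in shCtrl. It was 0.436 ± 0.0190 in rABS and 0.0126 ± 0.000826 in Parental. Exact permutation p was 0.1 in each pair, the smallest possible. SLC6A9 shares 404 exon bases with CCDC24, on the opposite strand.

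**Figure D3:**
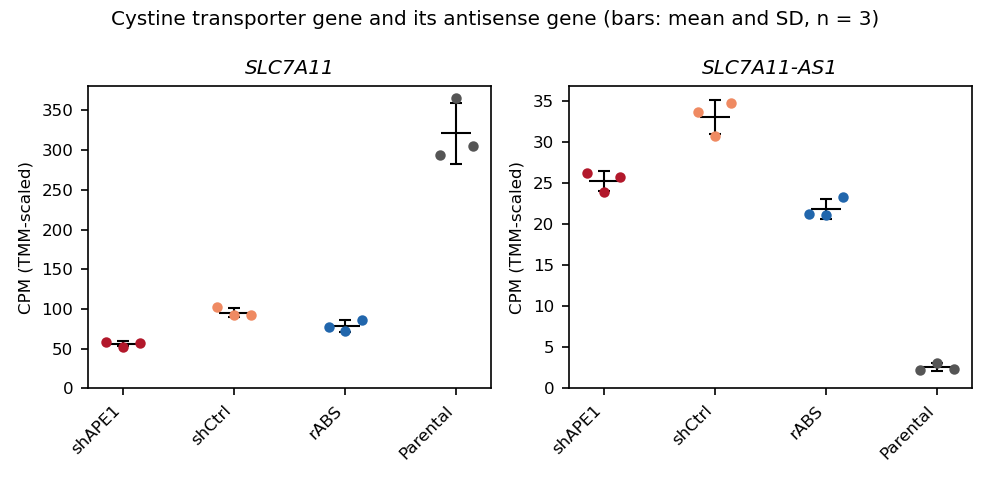
Level of SLC7A11 (left) and of SLC7A11-AS1 (right) in CPM by group, with different linear axes from 0. Points are libraries and bars the mean with SD (n = 3). Parental is the highest group for SLC7A11 and the lowest for SLC7A11-AS1, where no Parental library exceeds 3.13 CPM.

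SLC38A1 and SLC38A2 lie side by side on chromosome 12, and their neighbours were read in the same way. Of 17 genes tested within 1 Mb of the pair, themselves included, 15 fell and 1, the pseudogene PLEKHA8P1, rose (log2 1.26 ± 0.41, adjusted p = 0.00882) in rABS against Parental. Of all genes tested, 29.9% fell and 29.9% rose. Some of the non-coding genes that fell were at low levels, for instance PCED1B-AS1 at 0.140 CPM in rABS and 2.70 CPM in Parental. SLC38A2-AS1, which starts 1404 bases from SLC38A2 on the opposite strand and shares no exon base with it, fell (log2 -1.48 ± 0.32, adjusted p = 0.000179) with 1.08, 1.05 and 1.21 CPM in rABS, against 2.70, 3.18 and 3.48 CPM in Parental. The further protein-coding genes on the SLC38A1 side also fell, with log2 fold changes of -0.40 for SCAF11, -0.41 for ARID2 and -0.36 for ANO6. On the SLC38A2 side, AMIGO2, a gene for a neuronal adhesion protein, fell to 76.1 CPM in rABS, against 289.5 CPM in Parental (log2 -1.93 ± 0.08, adjusted p = 3.13e-20). PCED1B fell to 7.06 CPM in rABS, against 44.6 CPM in Parental (log2 -2.65 ± 0.12, adjusted p = 9.46e-19). In shAPE1 against shCtrl, 6 of the 17 fell, both carrier genes among them, and 1, ANO6, rose. Of all genes tested in that comparison, 18.8% fell and 17.8% rose. Copy number was not measured here.

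**Figure D4:**
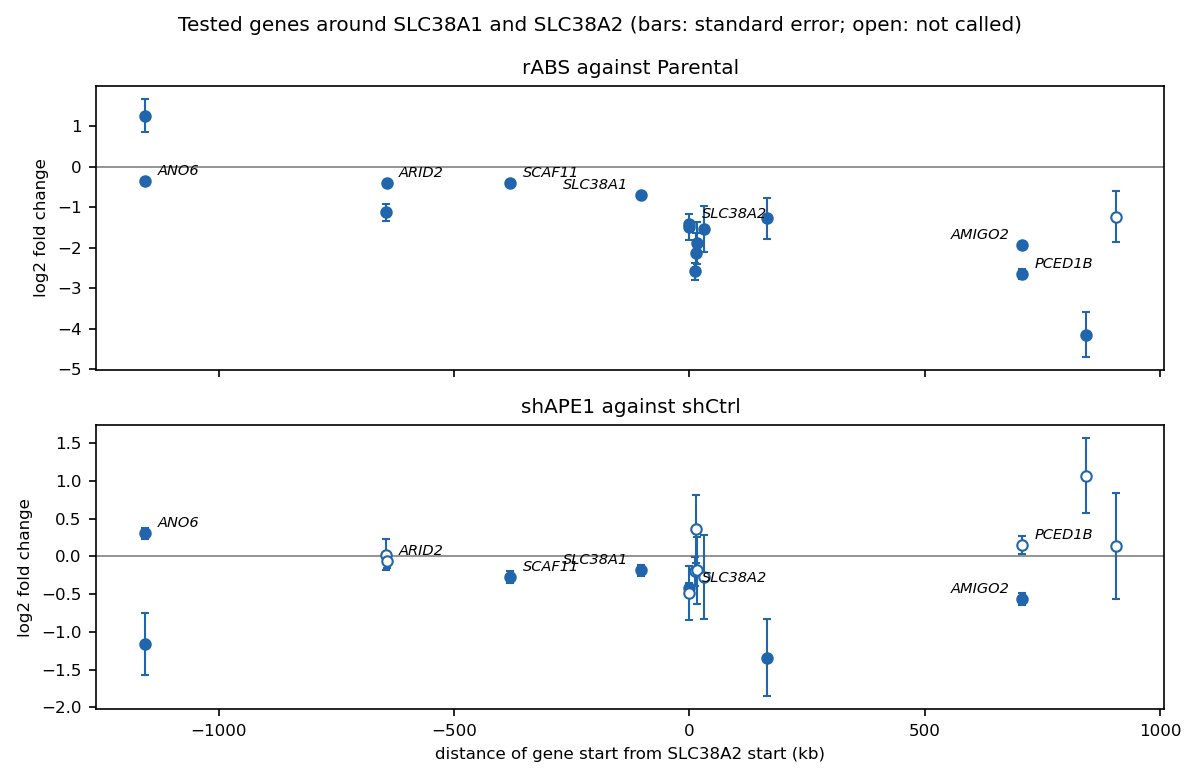
Log2 fold change with standard error of the 17 tested genes around SLC38A1 and SLC38A2, against the distance of each gene's start from that of SLC38A2 in kb, for rABS against Parental (top) and shAPE1 against shCtrl (bottom); filled points are called. In the top panel 15 of 17 genes are called below 0; in the bottom panel 6 are.

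Among other amino acid carriers, rises outnumbered falls. Of 29 further plasma-membrane amino acid transporter genes, 11 had enough counts to be tested. Between rABS and Parental 7 of those rose, 1 fell and 3 were not called, where 29.9% of all genes tested rose and 29.9% fell. SLC7A6 (y+LAT2), another SLC3A2-bound light chain, rose to 47.7 CPM in rABS, against 11.99 CPM in Parental (log2 1.99, adjusted p = 3.11e-18). SLC7A2 (CAT-2), a cationic carrier related to SLC7A1, rose to 79.1 CPM in rABS, against 27.6 CPM in Parental (log2 1.52, adjusted p = 6.99e-17). SLC1A3, a glutamate carrier, also rose, at low levels, with 2.67 CPM in rABS and 0.591 CPM in Parental (log2 2.14, adjusted p = 1.78e-07). The remaining risers were low too, with means of 0.938 to 6.71 CPM in rABS. The gene that fell was SLC6A6, the taurine transporter, at 92.5 CPM in rABS and 141 CPM in Parental (log2 -0.61, adjusted p = 6.6e-09). The difference between these genes and the 10 was not tested.

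Genes of the pathways that control or use these carriers were counted from 7 lists that share some genes. Their counts in rABS against Parental stand beside 29.9% of all genes tested falling and 29.9% rising. Of 22 ATF4 pathway genes, 17 fell, 2 rose and 3 were not called in rABS against Parental. ASNS, asparagine synthetase, stood at 21.8 CPM in rABS and 659.9 CPM in Parental (log2 -4.92, adjusted p = 7.07e-30), and ATF4 itself at 124 CPM in rABS and 729 CPM in Parental (log2 -2.56, adjusted p = 1.56e-24). TRIB3, a pseudokinase gene, had a log2 fold change of -3.56 and DDIT4, an mTORC1 inhibitor gene, one of -3.59, both called. Of 20 NRF2 pathway genes, 18 fell, 1 rose and 1 was not called. NFE2L2, which encodes NRF2, stood at 125 CPM in rABS and 406 CPM in Parental (log2 -1.70, adjusted p = 9.27e-20), and ABCC3, an efflux pump gene, TXNRD1, thioredoxin reductase, and TKT, transketolase, fell with log2 fold changes of -1.33, -1.12 and -1.18.

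In the list for cystine and glutathione use, 6 of 9 tested genes fell, 1 rose and 2 were not called. CHAC1, which degrades glutathione, fell with a log2 fold change of -3.52. CTH, which makes cysteine from cystathionine, fell with one of -1.88, GPX4, a lipid peroxide reductase, with one of -0.85 and GSR, glutathione reductase, with one of -0.54. Among 17 tested enzymes that use the carried amino acids, 9 fell, 2 rose and 6 were not called. PHGDH, the first enzyme of serine synthesis, stood at 9.04 CPM in rABS and 105 CPM in Parental, whereas SHMT1, cytosolic serine hydroxymethyltransferase, rose to 47.2 CPM in rABS, against 16.9 CPM in Parental.

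The last pair of lists was mixed. Of 32 genes for amino acid sensing at mTORC1, 12 rose, 10 fell and 10 were not called. SESN2, a leucine sensor, fell (log2 -3.20) and BMT2, an S-adenosylmethionine sensor, fell (log2 -0.96), while LAMTOR1, a Ragulator subunit, rose (log2 0.70). Of 11 tested MYC network genes, 5 fell, 3 rose and 3 were not called, with MXD1 (log2 -2.39), MNT (-1.04), MXD4 (-1.13) and MYCL (-1.62) falling. The 3 that rose, named after their values were seen, were MAX (log2 0.62), MGA (0.37) and MYC itself, at 651 CPM in rABS and 518 CPM in Parental (log2 0.33, adjusted p = 2.12e-05).

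**Figure D5:**
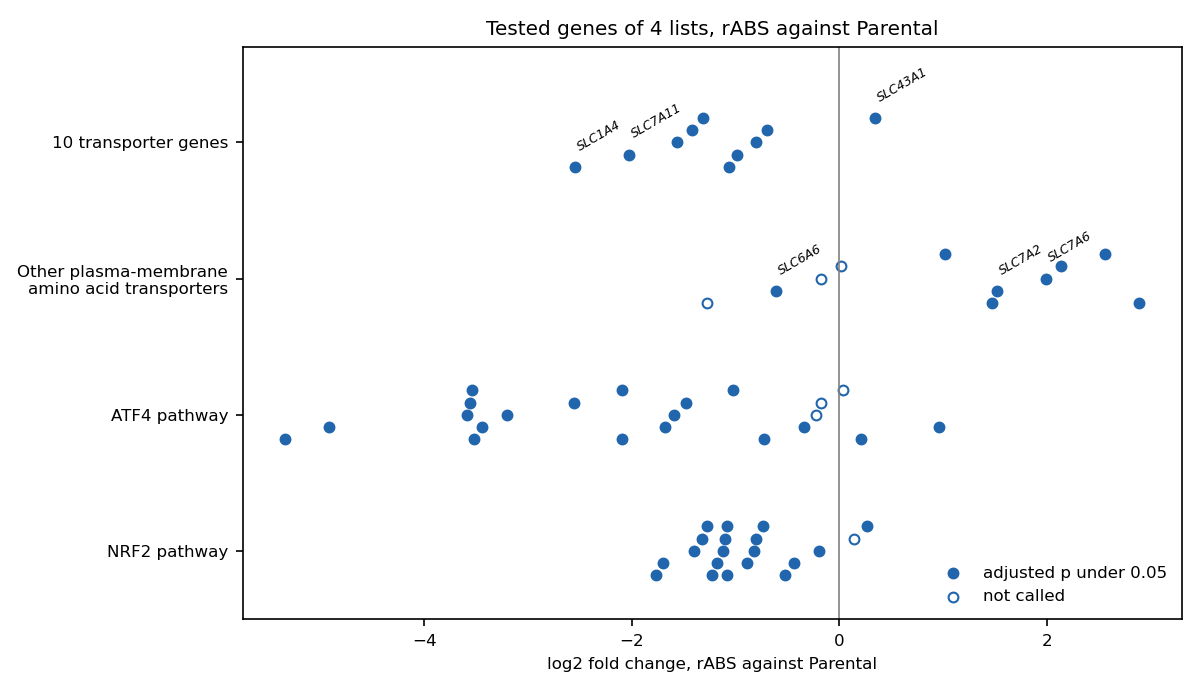
Log2 fold change of each tested gene in rABS against Parental for the 10 transporter genes, the other plasma-membrane amino acid transporters, the ATF4 pathway and the NRF2 pathway; filled points have an adjusted p under 0.05. Vertical offsets within a list only separate the points. The 10 transporter genes lie below 0 except SLC43A1, while 7 of the 11 other transporters are called above 0.

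The comparison of shAPE1 with shCtrl set survivors with the APE1 hairpin against survivors with the control hairpin. With a single APE1 hairpin labelled, loss of APE1 and other effects of that hairpin cannot be told apart. Of the 10 genes, 6 fell, 1 rose and 3 were not called, where 18.8% of all genes tested fell and 17.8% rose. One gene, SLC1A4, fell at least 2-fold, against 3.01% of all genes tested, and none rose as much, against 1.41%. The median log2 fold change was -0.21 over the 10 genes and -0.02 over all genes tested. The libraries of these groups did not overlap for 9 genes, the exception being SLC3A2, and did not overlap for 46.9% of all genes tested.

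SLC7A11 had 59.0, 52.7 and 57.5 CPM in shAPE1, against 102, 92.5 and 91.9 CPM in shCtrl. All shAPE1 libraries were below all 9 others, and the gene fell 1.69-fold (log2 -0.76 ± 0.08, adjusted p = 8.8e-09). SLC7A1 had 154, 169.7 and 152 CPM in shAPE1, against 279, 284 and 292 CPM in shCtrl. It fell 1.80-fold (log2 -0.85 ± 0.06, adjusted p = 2.68e-12), and 5.9% of all genes tested had a lower log2 fold change. SLC1A4 had 1.00, 1.52 and 0.875 CPM in shAPE1, against 2.91, 3.22 and 2.54 CPM in shCtrl, and fell 2.54-fold (log2 -1.35 ± 0.27, adjusted p = 0.000147). That level rested on 14 to 27 counts per library in shAPE1 and 51 to 76 in shCtrl. The shAPE1 libraries of SLC1A4 overlapped those of rABS, at 2.33, 1.22 and 2.42 CPM.

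SLC38A2 had 249.7, 247 and 234 CPM in shAPE1, against 336, 316 and 327 CPM in shCtrl, a fall of 1.34-fold (log2 -0.42 ± 0.07, adjusted p = 8.56e-06). SLC7A5 had 450.1, 491 and 483 CPM in shAPE1, against 529, 586 and 568 CPM in shCtrl, a fall of 1.18-fold (log2 -0.24 ± 0.06, adjusted p = 0.0036). SLC38A1 had 402, 411 and 406 CPM in shAPE1, against 489.8, 442 and 456 CPM in shCtrl (log2 -0.19 ± 0.07, adjusted p = 0.0401). These shAPE1 levels lay within the range of rABS, at 409, 383 and 451 CPM. The call of SLC38A1 was lost with other scalings, for instance at adjusted p = 0.109 with upper-quartile scaling, and without shCtrl library 1 or 3 or any 1 of the shAPE1 libraries.

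SLC1A5 was the gene that rose, with 263, 306 and 266 CPM in shAPE1, against 243, 252 and 244 CPM in shCtrl (log2 0.18 ± 0.07, adjusted p = 0.0412). The shAPE1 library at 306 CPM carried much of it, and without that library adjusted p was 0.251. The call was also lost without any 1 of the shCtrl libraries, at adjusted p of 0.0603 to 0.122, and with no filter on low counts (adjusted p = 0.0968).

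The other 3 genes were not called. SLC3A2 had 127, 153 and 141 CPM in shAPE1, against 149.5, 159 and 160.4 CPM in shCtrl (log2 -0.15 ± 0.08, adjusted p = 0.131), and was called below 0 without the shAPE1 library at 153 CPM (adjusted p = 0.0415). SLC6A9 had 21.5, 27.2 and 21.4 CPM in shAPE1, against 15.4, 21.1 and 21.3 CPM in shCtrl (log2 0.28 ± 0.12, adjusted p = 0.06), and was called above 0 under RLE scaling (0.0436), upper-quartile scaling (0.0335) and DESeq2 (0.0483), and without shCtrl library 2 or 3 or shAPE1 library 1 or 3 (0.0375 to 0.0482). SLC43A1 had 23.0, 25.4 and 23.2 CPM in shAPE1, against 25.6, 25.9 and 27.4 CPM in shCtrl (log2 -0.14 ± 0.10, adjusted p = 0.289).

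The cystine and leucine light chains changed unequally. The ratio of SLC7A11 to SLC7A5 per kilobase of exon was 0.0645, 0.0528 and 0.0586 in shAPE1, against 0.0951, 0.0777 and 0.0796 in shCtrl. It was 0.0667, 0.0626 and 0.0774 in rABS, against 0.0984, 0.136 and 0.107 in Parental. In both pairs the groups did not overlap (exact permutation p = 0.1, the smallest possible). The ratio was also higher in shCtrl than in rABS, at 0.0842 ± 0.00955 and 0.0689 ± 0.00769 (the same p). Those groups only just failed to overlap, with the nearest libraries at 0.0777 in shCtrl and 0.0774 in rABS. The libraries of shAPE1 and rABS overlapped. The ratio of SLC38A1 to SLC38A2 was 1.10 ± 0.0413 in shAPE1 and 0.935 ± 0.0232 in shCtrl, again without overlap and with the same p.

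Among the members that fell in shAPE1, 4, SLC7A11, SLC7A1, SLC38A1 and SLC38A2, carry in the 3′ UTR either the 7-mer TGCATTC or one of its shifted forms, which are GCATTCT on one side and, on the other, CTGCATT. The other 6 members carry none of these. An earlier analysis chose these letters because their carriers were lower in these same shAPE1 and shCtrl libraries, so the match is not independent of the fold changes. The 3′ UTR used is the longest annotated for each gene, whichever transcript is expressed. By that rule the carriers' 3′ UTRs are 3768 to 7859 bases long and those of the other members 2947 or shorter. Carriers and non-carriers are thus also split by length. Of the 3096 tested genes with a 3′ UTR of at least 3000 bases, 62.435% carry one of the 7-mers, against 30.816% of all 12539 with a 3′ UTR. The sites, on GRCh38 with GENCODE 29 transcripts, all on the minus strand and with the matching letters in capitals, are shown for 1 site in each of these genes.
SLC7A11 (chr4:138168095-138168124): ccccacaaaatCTGCATTgtccatgtgagt
SLC7A1 (chr13:29513903-29513932): ccttctccggtTGCATTCagatgggtcatt
SLC38A1 (chr12:46187476-46187505): gaaacccagaaCTGCATTCccctaagtggg
SLC38A2 (chr12:46359440-46359469): gtttttgttacGCATTCTtgtattatatgt

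SLC38A1 has both TGCATTC and CTGCATT in the site shown, and SLC7A1 has TGCATTC alone. Whether these sites play a part in the falls was not tested. SLC1A4 and SLC7A5 fell in shAPE1 and carry none of the 3.

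The other amino acid carriers were split in shAPE1 against shCtrl, with 4 of 11 rising, 2 falling and 5 not called. For this list and those that follow, 17.8% of all genes tested rose and 18.8% fell. SLC7A2 rose to 129 CPM in shAPE1, against 83.1 CPM in shCtrl (log2 0.64, adjusted p = 2.79e-08), where its relative SLC7A1 fell. SLC7A6 (log2 0.31) and SLC6A6 (log2 0.21) rose, and SLC43A2, the relative of SLC43A1, fell (log2 -0.49, adjusted p = 0.00187). In the ATF4 pathway list 9 genes fell, 5 rose and 8 were not called. The falls included ASNS at 38.0 CPM in shAPE1 and 84.5 CPM in shCtrl (log2 -1.15), PHGDH (log2 -1.85), PSAT1 (log2 -1.13) and MTHFD2 (log2 -0.99). In rABS, ASNS stood at 21.8 CPM, below shAPE1. PHGDH stood at 9.04 CPM in rABS and 4.71 CPM in shAPE1, PSAT1 at 75.8 and 37.1 CPM, and MTHFD2 at 80.8 and 49.1 CPM. ATF4, named here after its value was seen, stood at 129 CPM in shAPE1 and 205 CPM in shCtrl (log2 -0.67, adjusted p = 7.35e-10). In rABS ATF4 stood at 124 CPM. The difference between shAPE1 and rABS was not tested.

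In the NRF2 pathway list 5 genes rose, 4 fell and 11 were not called, counts near the shares of all genes tested. SRXN1 (log2 -1.08) and GCLM (log2 -0.91) fell, while HMOX1 (log2 1.27) and TKT (log2 0.53) rose. In the list for cystine and glutathione use, 4 of 9 fell, 3 rose and 2 were not called. GSS, glutathione synthetase, stood at 56.0 CPM in shAPE1 and 96.1 CPM in shCtrl (log2 -0.78), and CHAC1 fell too (log2 -1.04), while GPX4 rose (log2 0.37). Among the enzymes, 6 of 17 fell, 3 rose and 8 were not called, and BCAT2, a branched-chain aminotransferase gene, rose to 75.4 CPM in shAPE1, against 47.8 CPM in shCtrl (log2 0.66, adjusted p = 2.37e-07). Of the mTORC1 sensing genes 13 rose, 2 fell and 17 were not called, with NPRL3 (log2 0.64), FNIP2 (0.81), MLST8 (0.57) and LAMTOR1 (0.50) among the rises. In the MYC network 5 of 11 rose, 1 fell and 5 were not called. MYC rose to 1171 CPM in shAPE1, against 744 CPM in shCtrl (log2 0.65, adjusted p = 2.87e-10), with MXD4 (log2 1.38) and MLXIP (0.56), while MXD1 fell (log2 -0.84).

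Survivors with the control hairpin and those without one differed little in these genes. Effects of the hairpin, of its transduction and of time in culture cannot be told apart here. Between shCtrl and rABS, 3 of the 10 genes rose, 1 fell and 6 were not called, where 17.9% of all genes tested rose and 18.6% fell. The members were thus called about as often as all genes tested, of which 36.5% were called. None of the 10 changed 2-fold, against 3.32% of all genes that rose and 1.53% that fell as much. SLC7A11 rose 1.21-fold (log2 0.28 ± 0.08, adjusted p = 0.00749), with all shCtrl libraries above all rABS libraries. Its call was lost without shCtrl library 1 (adjusted p = 0.055) and without rABS library 2 (adjusted p = 0.0639). SLC38A2 rose 1.19-fold (log2 0.25 ± 0.07, adjusted p = 0.00381).

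SLC7A1 rose 1.14-fold (log2 0.18 ± 0.06, adjusted p = 0.023), a call lost without rABS library 1 or 2 or shCtrl library 3, at adjusted p of 0.0656 to 0.0958. SLC3A2 fell 1.24-fold (log2 -0.32 ± 0.08, adjusted p = 0.00162), so the heavy chain was lower in shCtrl while SLC7A5 was not called (log2 -0.00, adjusted p = 0.978). SLC7A11 and SLC7A5 summed per kilobase were 4.24 ± 0.0813 times SLC3A2 in shCtrl and 3.39 ± 0.296 times in rABS. Of the SLC1 pair, SLC1A4 had log2 0.53 ± 0.24 (adjusted p = 0.0875) and SLC1A5 log2 -0.03 (adjusted p = 0.739), neither called.

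Among the 11 other transporters SLC6A6 rose (log2 0.53, adjusted p = 5.35e-07) and 10 were not called. For this list and those that follow, 17.9% of all genes tested rose and 18.6% fell. The NRF2 and enzyme counts are near those shares. In the ATF4 pathway list 12 genes rose, 2 fell and 8 were not called, with the smallest adjusted p for ASNS at 84.5 CPM in shCtrl and 21.8 CPM in rABS (log2 1.96) and for ATF4 at 205 CPM in shCtrl and 124 CPM in rABS (log2 0.73), while ATF5 (log2 -1.39) and PPP1R15A (-0.55) fell. In the NRF2 list 5 rose, 4 fell and 11 were not called, with NFE2L2 (log2 0.30) and BACH1 (0.32) above and KEAP1 (-0.51) and TXNRD1 (-0.25) below. Of the cystine and glutathione genes 4 rose, 1 fell and 4 were not called, with CTH (log2 1.36) and CHAC1 (1.04) among the rises. The enzymes had 4 rises, 3 falls and 10 not called, with ODC1, ornithine decarboxylase, falling (log2 -0.71). The mTORC1 genes had 9 rises, 11 falls and 12 not called, among the falls MTOR (log2 -0.36) and RPTOR (-0.43). The MYC network had 4 rises, 2 falls and 5 not called, with MYCL (log2 1.16) rising.

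The survivors with the control hairpin were also set against Parental. Of the 10 genes, 9 fell and SLC43A1 rose (log2 0.31, adjusted p = 0.0106), where 26.1% of all genes tested fell and 27.0% rose. Of these, 7 fell at least 2-fold, against 5.31% of all genes tested, and none rose as much, against 8.19%. SLC7A11 fell 3.37-fold, SLC1A4 4.07-fold, SLC6A9 2.84-fold, SLC3A2 2.60-fold, SLC7A5 2.49-fold, SLC38A2 2.25-fold and SLC1A5 2.03-fold. SLC7A1 fell 1.53-fold and SLC38A1 1.46-fold. Per kilobase of exon, SLC7A11 and SLC7A5 summed were 4.24 ± 0.0813 times SLC3A2 in shCtrl and 4.19 ± 0.283 times in Parental, with overlapping libraries. The call for SLC43A1 was lost without Parental library 2 (adjusted p = 0.0814). This comparison shares its groups with the others, so it is not a separate repeat of them.

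Within the list, patterns across the 12 libraries were compared by the root mean square difference of log2 CPM after each gene was centred on its own mean. SLC7A5 and SLC3A2, which form one carrier, differed by 0.136, the smallest value of any pair of members, followed by SLC7A5 and SLC38A2 at 0.145 and SLC1A5 and SLC38A1 at 0.220. SLC1A4 and SLC43A1 differed most, at 1.33. SLC7A11 was less like SLC7A5 and SLC3A2 than those were like each other.

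Among 10502 genes with a mean of at least 5 CPM, those nearest to SLC7A11 were MAP1LC3B, an autophagosome component (0.0889), AMIGO2 (0.126), AKAP12, a kinase scaffold (0.127), AARS1, alanyl-tRNA synthetase (0.161), and MTHFD2, a mitochondrial folate enzyme (0.169). AMIGO2 is also the chromosome 12 neighbour described above. Those nearest to SLC7A5 were MAFF, a small MAF protein (0.0819), ZFP36, an mRNA decay factor (0.0914), FOXL1 (0.0997), RPS6KA2 (0.119) and PGD, a pentose phosphate enzyme (0.120). MAFF, ZFP36 and FOXL1 were also among the genes nearest to SLC3A2, at 0.112, 0.130 and 0.132, with RNF187 at 0.104.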

How the data were processed

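RNA was selected for polyadenylation, per the labels' protocols. The authors deposited raw counts, whole numbers per Ensembl gene with no normalization. Per the submitters' processing notes, Trimmomatic 0.36, STAR 2.5.2b, featureCounts of Subread 1.5.2 and GRCh38 were used. Which annotation release was counted, whether strand was used and what became of multi-mapping reads is not given in the sources used here. Of 57500 genes, 35464 had a count in some library, and 56410 identifiers were matched to a symbol.

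The 10 members and the 7 other gene lists were chosen with earlier results of these data known. Genes were kept with filterByExpr over the 4 groups (minimum count 10, minimum total 15), scaled with TMM, and tested with edgeR 4.0.16's quasi-likelihood test with robust estimation and 1 term for each group, on all 12 libraries (limma 3.58.1, R 4.3.3). Adjustment was over all 15805 genes, with calls at an adjusted p under 0.05. CPM use the scaled library sizes, and log2 CPM for patterns a prior count of 2. The procedure was tested on simulated data. Replicates differed by more than sampling noise, so none was merged.

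Exon lengths, positions and 3′ UTRs (the longest annotated per gene) come from GENCODE 29, and promoters from RefSeq. Named genes were the members, APEX1, up to 4 called genes per list and comparison by adjusted p, the 5 genes nearest in pattern to SLC7A11, SLC7A5 and SLC3A2, and tested neighbours of SLC38A1 and SLC38A2. The antisense gene SLC7A11-AS1 was added after its values were seen. Alternatives were RLE and upper-quartile scaling, no filter, a minimum count of 50, limma-voom, DESeq2 1.42.0, the 6 libraries alone, a replicate block, a 2-fold threshold and leaving out each library. Protein and amino acid uptake were not analysed here, and a few genes that the naming rule covers are not reported here.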

Additional observations from a re-analysis of the deposited data

How the results depend on the processing

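For the 10 genes, 516 of the values refitted under an alternative kept their direction and side of the threshold, 12 became called, 22 lost their call and 10 changed sign. All 9 falls between rABS and Parental, and all 9 between shCtrl and Parental, were called under every refit run, and 6 and 7 of them also passed a 2-fold threshold. The count of risers between shAPE1 and shCtrl, 1 as reported, was 2 under RLE scaling, upper-quartile scaling and DESeq2, 0 with no filter on low counts, and 0 to 2 when a library was left out. Leaving out a library gave 1 to 4 risers between shCtrl and rABS, where 3 are reported, the lowest without rABS library 2, and 0 to 1 between shCtrl and Parental. With a 2-fold threshold no member rose in any of the comparisons, 1 fell between shAPE1 and shCtrl, where 6 are reported, and 0 fell between shCtrl and rABS, where 1 is reported. That threshold left 1602 rising and 1472 falling genes of all tested between rABS and Parental, where 4729 and 4725 are called without it. It left 223 and 476 between shAPE1 and shCtrl, where 2808 and 2976 are called, 525 and 242 between shCtrl and rABS, where 2832 and 2935 are called, and 1294 and 839 between shCtrl and Parental, where 4271 and 4123 are called. The changes of sign were all between shCtrl and rABS, in genes not called. The log2 fold change of SLC7A5 became 0.014 with upper-quartile scaling, 0.031 with a minimum count of 50, and -0.036 to 0.035 without single libraries. That of SLC1A5 became 0.00039 and that of SLC43A1 0.00064 with a minimum count of 50, SLC43A1 ranged between -0.097 and 0.0099 without single libraries, and SLC6A9 between -0.016 and 0.19. No scaling moved the median of all genes by as much as 0.1 on the log2 scale.

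Replicate numbers did not pair the libraries: same-numbered libraries of the groups compared had deviations that correlated at -0.167 to 0.0673, and 3 of 12 libraries resembled their own number most. With the replicate block, 0 members rose between shAPE1 and shCtrl, since SLC1A5 had an adjusted p of 0.0659, and SLC38A1 was not called (0.0642). Depth limits SLC1A4 most, with 14 to 27 counts per shAPE1 library.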
